A study of Mus musculus with 16 samples.

Results

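The Mbnl and Celf genes encode 2 families of RNA-binding proteins that set alternative splicing. The 9 genes of both families, Mbnl1 to Mbnl3 and Celf1 to Celf6, were taken by gene symbol from the 21878 mRNAs of the deposited tables, and all 9 were measured. Mbnl3 was among the genes that the study selected on the difference between these same EAE and PBS libraries, and its relatives were taken up with that result known, so the difference of each member between the groups is a description and not an independent test. The libraries came from microglia sorted as CD11b+/CD45int cells from the brains of female C57BL/6 mice with a WT genotype, which the methods give as 8 weeks old. The 8 EAE mice had been immunized with a MOG peptide in complete Freund's adjuvant and given pertussis toxin, and were sampled at the peak of disease, on day 14 by the methods. The 8 PBS mice had received PBS. One field of the labels gives the MOG peptide as residues 35–55 for EAE 1, with a last residue that rises by 1 per mouse to 62 for EAE 8. EAE (experimental autoimmune encephalomyelitis) is a mouse model of multiple sclerosis.

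Muscleblind-like (MBNL) proteins bind RNA through zinc fingers, and CELF proteins through RNA recognition motifs with a preference for GU-rich sequence. The families act against each other on many exons that switch during development of heart, skeletal muscle and brain. In myotonic dystrophy, MBNL proteins are trapped on expanded repeat RNA and CELF1 rises, which returns splicing to a fetal pattern. Mbnl1 and Mbnl2 are used in most tissues, while Mbnl3 is best known from placenta and muscle precursor cells. Celf1 and Celf2 are broadly used, and Celf3, Celf4, Celf5 and Celf6 are known chiefly from the nervous system. Gene-level counts give the amount of each regulator's mRNA, not the splicing of its targets.

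The 3 Mbnl genes are close relatives, and Mbnl3 had few counts, so it matters whether reads of one could have been assigned to another. The stretch of coding sequence printed here lies around the longest run of coding bases that Mbnl1 and Mbnl3 share. It was not chosen as the stretch where all 3 genes are most alike. It is 60 bases long and was aligned between the GENCODE M21 transcripts on GRCm38, with capitals at each position where the 3 genes do not all carry the same base.
Mbnl1, chr3:60613350-60613409, plus strand, exonic coding: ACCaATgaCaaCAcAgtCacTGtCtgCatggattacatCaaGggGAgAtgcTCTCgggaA
Mbnl2, chr14:120388987-120389046, plus strand, exonic coding: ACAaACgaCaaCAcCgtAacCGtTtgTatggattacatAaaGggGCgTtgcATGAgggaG
Mbnl3, chrX:51130195-51130254, minus strand, exonic coding: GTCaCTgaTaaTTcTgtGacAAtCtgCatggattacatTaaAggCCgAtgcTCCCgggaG
Mbnl1 differed from Mbnl3 at 16 of these 60 positions, and Mbnl2 differed from Mbnl3 at 22. The longest run of identical coding bases was 16 between Mbnl1 and Mbnl3, 15 between Mbnl2 and Mbnl3, and 26 between Mbnl1 and Mbnl2. Among all transcripts of the 9 members, 0 stretches of 50 bases of Mbnl3 occurred in another member, and none was shared by any other pair of members. The reads were 150 bases long.

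Mbnl1 lies on chromosome 3, Mbnl2 on 14, Mbnl3 on X, Celf1 and Celf2 on 2, Celf3 on 3, Celf4 on 18, Celf5 on 10 and Celf6 on 9. Mbnl3, Celf1 and Celf6 overlapped 0 other annotated genes. Celf3 overlapped the protein-coding gene Riiad1 on the opposite strand, and Mbnl2 and Celf5 each overlapped 1 antisense gene. Celf2, Celf4 and Mbnl1 overlapped 7, 3 and 2 other genes, respectively, all non-coding or unclassified. The strand setting of the counting is not given in the sources used here, so reads of such neighbours may be part of these values.

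The EAE libraries held between 24587443 and 30244215 counts each, and the PBS libraries between 26031889 and 34184576. Although the label is microglia, markers of neurons, astrocytes and oligodendrocytes all stood above those of microglia. FPKM values are fragments per kilobase of transcript, scaled to the library's size. The mean FPKM of 17 neuron markers lay between 126 and 156 in EAE mice and between 152 and 169 in PBS mice, against 13.5 to 21.8 and 12.4 to 20.5 for 17 microglia markers. The mean FPKM over both groups lay between 121 and 184 for 10 astrocyte markers and between 94.5 and 133 for 10 oligodendrocyte markers. Neuron markers stood 6.15 to 12.2 times above microglia markers in all 16 libraries. The microglial receptor Cx3cr1 had a mean of 11.9 FPKM (range 6.10 to 19.4, n = 16) and the synaptic gene Snap25 had 210.3 (range 171 to 234). In such bulk libraries, fewer cells of a type and less RNA per cell cannot be told apart, and a member's level cannot be given to a cell type. Libraries EAE 6, EAE 7 and EAE 8 and libraries PBS 5, PBS 7 and PBS 8 were more alike than the rest. The median absolute log2 difference over mRNAs was 0.0823 to 0.0900 among the 3 EAE libraries and 0.0753 to 0.0875 among the 3 PBS libraries, against 0.118 to 0.248 and 0.130 to 0.226 for the other pairs. The labels name no batch, and results are given within these 6 libraries and within the other 10 where they differ.

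Of the 9 members, 7 were abundant, Celf6 was at a moderate level and Mbnl3 was very low. Mean levels over the 16 libraries were 38.8 FPKM for Mbnl2, 35.1 for Celf1, 34.3 for Celf3, 33.7 for Celf4, 33.2 for Celf2 and 31.8 for Celf5. Mbnl1 followed with 15.8 FPKM, Celf6 with 5.27 and Mbnl3 with 0.0449. Among mRNAs with a mean FPKM above 0, Mbnl2 was higher than 94.1% of them, Celf6 than 54.6% and Mbnl3 than 12.4%. Neighbours in this order were compared with an exact two-sided sign-flip permutation test of their log2 FPKM ratio over the 16 libraries, adjusted over the 8 neighbouring pairs. Mbnl2 was above Celf1 in 14 of 16 libraries (exact permutation p = 0.00171, adjusted p = 0.00342). From Celf1 to Celf5, none of the 4 neighbouring pairs differed beyond the spread between libraries, with adjusted exact permutation p from 0.321 to 0.814. Celf5 was above Mbnl1, Mbnl1 above Celf6 and Celf6 above Mbnl3 in 16 of 16 libraries each (exact permutation p = 3.05e-05, the smallest that this test can give, adjusted p = 8.14e-05).

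This order depends on the length by which counts are divided. The lengths implied by the authors' counts and FPKM values were 7634 bases for Mbnl1 and 4689 for Mbnl2, while all annotated exons of these genes merge to 18717 and 11993 bases in GENCODE M21. Divided by the merged length, Celf4 came first with 42.2 on the FPKM scale, Mbnl2 came sixth with 15.2 and Celf6, with 8.59, stood above Mbnl1, with 6.43. Mbnl3 came last by either length, with 0.0475 by the merged length.

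**Figure D1:**
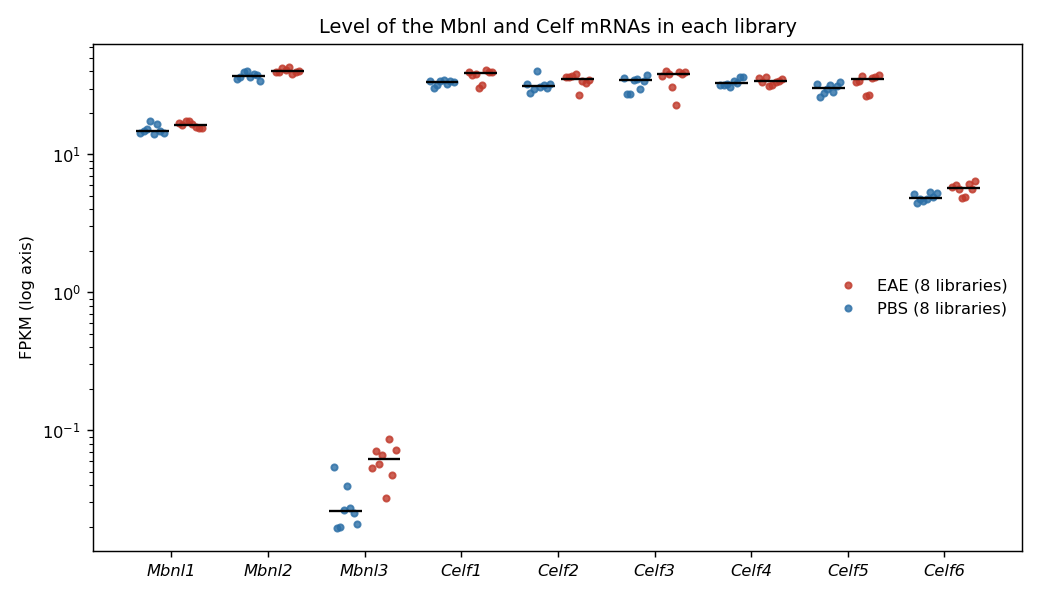
FPKM of each Mbnl and Celf mRNA in each library on a log axis, with the 8 PBS libraries in blue at the left of each gene, the 8 EAE libraries in red at the right and a black line at each group's median. All members except Celf6 and Mbnl3 lie above 10 FPKM, Celf6 lies between 4.41 and 6.46, and Mbnl3 lies under 0.1 in every library.

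Mbnl2 carried most of the Mbnl mRNA by FPKM. Its share of the summed Mbnl level was 69.9% to 72.2% over the 16 libraries, and that of Mbnl1 was 27.7% to 30.01%. These shares were 71.0% ± 0.857 (SD, n = 8) and 28.9% ± 0.843 in EAE mice, and 71.1% ± 0.866 and 28.9% ± 0.867 in PBS mice. The ratio of Mbnl2 to Mbnl1 ran from 2.33 to 2.60 across libraries. Mbnl3 made up 0.108% ± 0.0323 of the Mbnl level in EAE mice and 0.0562% ± 0.0253 in PBS mice, and Mbnl2 was 440.0 to 1991 times as high as Mbnl3 in the same library. Within the Celf family the level was divided more evenly. Celf1, Celf2, Celf3, Celf4 and Celf5 each held between 15.7% and 23.5% of the summed Celf FPKM in every library, and Celf6 held 2.64% to 3.35%. Like the order, these shares depend on the length. By the merged length, the means of these 5 ran from 24.1 for Celf2 to 42.2 for Celf4, with 8.59 for Celf6.

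Mbnl3, the member that the study selected, had higher values in most EAE libraries, on very few counts. The study also reported higher MBNL3 in EAE microglia by qRT-PCR and by Western blot, which are not part of these counts. Its FPKM was 0.0322 at the lowest, 0.0619 at the median and 0.0863 at the highest of the 8 EAE libraries, and 0.0196, 0.0258 and 0.0540 in the PBS libraries. The groups overlapped. EAE 5, the lowest EAE library, and EAE 1 and EAE 7 lay below PBS 1, the highest PBS library, while 5 EAE libraries lay above every PBS library and all 8 lay above the PBS median. The counts behind these values were 9 to 21 in the EAE libraries, 118 in all, and 5 to 13 in the PBS libraries, 64 in all. At this depth, 95% exact Poisson intervals, which cover counting error only, ran from 4.12 to 17.1 for the 9 counts of EAE 5 and from 6.92 to 22.2 for the 13 counts of PBS 1. The SD between libraries was 3.73 counts in EAE mice and 2.93 in PBS mice, close to the 3.84 and 2.83 that Poisson counting alone would give at the group means of 14.8 and 8.0 counts. Neutrophil markers also differed between the groups, as edgeR called 5 of 12 higher and 0 lower in EAE mice. The median log2FC of the 12 was 1.31. Their summed FPKM lay between 23.6 and 64.6 in EAE mice and between 9.58 and 24.4 in PBS mice, and 0 of the 12 were at 0 in all libraries. Of 8 monocyte markers 0 were called, with a median log2FC of 0.61, and the part of either cell type in the values of Mbnl3 was not tested.

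In edgeR's quasi-likelihood fit over the 17885 mRNAs with at least 16 counts in all, the log2 fold change (log2FC, EAE minus PBS) of Mbnl3 was 1.00 (SE 0.32, 95% interval 0.33 to 1.68). Its adjusted p over all mRNAs in this edgeR fit was 0.103, above the threshold of 0.05, and 936 mRNAs had a smaller p. With the edgeR exact test the adjusted p was 0.0300, and with the DESeq2 Wald test it was 0.0581. Leaving out 1 library at a time gave log2FC values of 0.91 to 1.17 and adjusted p from 0.0521 to 0.203 in the edgeR fit. Within the 6 libraries most alike the log2FC was 1.21 (95% interval 0.02 to 2.41), and within the other 10 it was 0.86 (95% interval −0.18 to 1.90).

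Mbnl1 and Mbnl2, the abundant muscleblind-like genes, differed little between the groups. Mbnl1 had 15.4 FPKM at the lowest, 16.4 at the median and 17.4 at the highest of the EAE libraries, and 13.98, 14.8 and 17.4 in the PBS libraries. Mbnl2 had 38.0, 39.9 and 42.9 FPKM in the EAE libraries and 34.2, 37.1 and 40.5 in the PBS libraries. The groups overlapped for both genes, and PBS 4 was the highest PBS library for both. By FPKM, all 8 EAE libraries lay above the PBS median for both genes. Of the 8 PBS libraries, 6 lay below every EAE library for Mbnl1 and 5 for Mbnl2. In the edgeR fit the log2FC was 0.06 for Mbnl1 (SE 0.05, adjusted p = 0.554) and 0.06 for Mbnl2 (SE 0.04, adjusted p = 0.494). As a change of the level in EAE mice, the 95% intervals ran from −2.72% to 12.1% for Mbnl1 and from −1.97% to 11.4% for Mbnl2. Leaving out 1 library at a time gave log2FC values of 0.04 to 0.09 for Mbnl1 and 0.05 to 0.08 for Mbnl2. Both were highest without PBS 4, and none of these fits called either gene.

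The broadly used Celf1, whose protein also takes part in mRNA decay and translation, had 30.4, 38.6 and 40.6 FPKM at the lowest, median and highest of the EAE libraries and 30.1, 33.7 and 34.8 in the PBS libraries. The groups overlapped, as EAE 4 with 30.4 FPKM and EAE 5 with 31.9 lay among the PBS libraries while 6 EAE libraries lay above every PBS library. Its log2FC was 0.12 (SE 0.06, adjusted p = 0.291 in the edgeR fit). Celf2, the other broadly used member, had 26.8, 35.3 and 38.1 FPKM in the EAE libraries and 27.7, 31.4 and 40.3 in the PBS libraries. The ranges overlapped over most of their length, with EAE 5 the lowest and PBS 4 the highest of all 16 libraries. By FPKM, 7 of 8 EAE libraries lay above the PBS median, and 1 of 8 PBS libraries lay above the EAE median. The log2FC of Celf2 was 0.06 (SE 0.07, adjusted p = 0.730 in the edgeR fit). Leaving out 1 library at a time gave 0.03 to 0.11, with 0.11 without PBS 4 and 0.10 without EAE 5. None of these fits called Celf2.

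Of the Celf genes known chiefly from the nervous system, Celf6 had the largest log2FC and Celf4 the smallest. Celf6 had 4.81, 5.69 and 6.46 FPKM at the lowest, median and highest of the EAE libraries and 4.41, 4.83 and 5.31 in the PBS libraries. Again 6 EAE libraries lay above every PBS library, and EAE 4 and EAE 5, with 4.81 and 4.87 FPKM, did not. The log2FC of Celf6 was 0.16 (SE 0.06, 95% interval 0.03 to 0.30), with an adjusted p of 0.186 in the edgeR fit.

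Celf3 had 22.8, 38.2 and 40.3 FPKM in the EAE libraries and 27.2, 34.4 and 37.6 in the PBS libraries, with EAE 5 the lowest of all 16. Celf5 had 26.3, 34.9 and 37.5 FPKM in the EAE libraries and 25.9, 30.3 and 33.6 in the PBS libraries, with EAE 4 and EAE 5 again low. By FPKM, 6 EAE libraries lay above every PBS library for Celf5, but this depends on the scaling. In log2 CPM, scaled as in the edgeR fit, its deviations from the mean were 0.06 in EAE 1 and 0.07 in EAE 2. Both lay below the 0.11 of PBS 8. The log2FC was 0.08 for Celf3 (SE 0.10, adjusted p = 0.716) and 0.10 for Celf5 (SE 0.07, adjusted p = 0.498 in the edgeR fit). Celf4 had 31.2, 33.95 and 36.5 FPKM in the EAE libraries and 30.8, 32.8 and 36.1 in the PBS libraries, which overlapped almost fully. Its log2FC was −0.02 (SE 0.04, adjusted p = 0.862 in the edgeR fit), and its 95% interval as a change of the level ran from −7.52% to 5.17%.

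**Figure D2:**
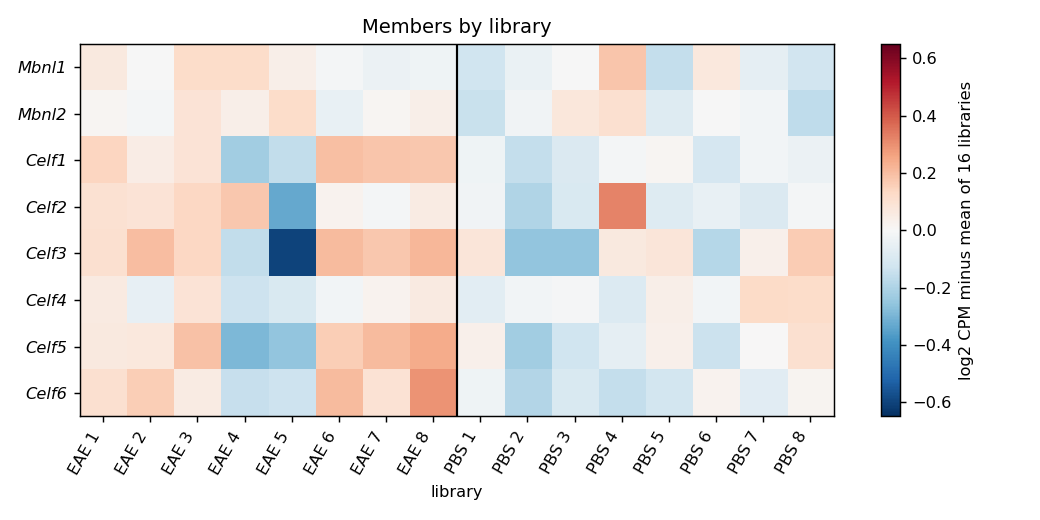
Deviation of each library's log2 CPM (counts scaled to library size) from the mean of the 16 libraries for the 8 members with at least 737 counts in every library, with EAE libraries left of the line and PBS libraries right of it. EAE 4, EAE 5 and PBS 2 are low for Celf1, Celf3, Celf5 and Celf6, with the lowest cell, −0.60, at Celf3 in EAE 5.

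At an adjusted p under 0.05, 0 of the 9 members were called higher and 0 lower in EAE mice by edgeR, against 0.66% of all 17885 mRNAs called higher, 1.76% called lower and 2.42% in either direction. With the study's second threshold, a |log2FC| over 1, 0 members were called in the same quasi-likelihood fit, against 0.117% of all mRNAs. At an unadjusted p under 0.05 the edgeR fit held 2 of the 9 members, Mbnl3 and Celf6, against 17.4% of all mRNAs. The DESeq2 Wald test called 0 members. The edgeR exact test called Mbnl3, which passed both of the study's thresholds there, with a log2FC of 1.003 and an adjusted p of 0.0300. The log2FC was above 0 for 8 of the 9 members, and its median over the members was 0.08, while that over all mRNAs was 0.01 and 9417 of them were above 0. Over all mRNAs, 118 were called higher and 315 lower, and with scaling by library totals alone this split was 226 higher and 103 lower. Scaling by library totals alone, as in FPKM, moved the median log2FC of all mRNAs to 0.06 and that of Celf4 to 0.03, so the sign of Celf4 depends on the scaling.

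The 6 libraries most alike were picked from the data because they differ least within groups, so the SEs and adjusted p of a fit to them are small by that choice. In the edgeR fit to these 6, Celf1, Celf2, Celf3, Celf5 and Celf6 were called higher in EAE mice, 5 of the 9 members. Of the 17239 mRNAs tested in that fit, 1896 were called higher, and 24.1% were called in either direction. The log2FC there was 0.20 for Celf1, 0.16 for Celf5, 0.26 for Celf6 and, with the opposite sign, −0.07 for Celf4. Within the other 10 libraries, 0 members were called and the same edgeR estimates were 0.06 for Celf1, 0.06 for Celf5, 0.09 for Celf6 and 0.01 for Celf4. The difference between the sets of libraries was not tested, since the sets were formed from the data. Without EAE 4, Celf1 (log2FC 0.16, adjusted p = 0.0495) and Celf6 (log2FC 0.20, adjusted p = 0.0499) were called higher by edgeR. Of the 17853 mRNAs tested without EAE 4, 502 were called higher, and 7.38% were called in either direction.

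**Figure D3:**
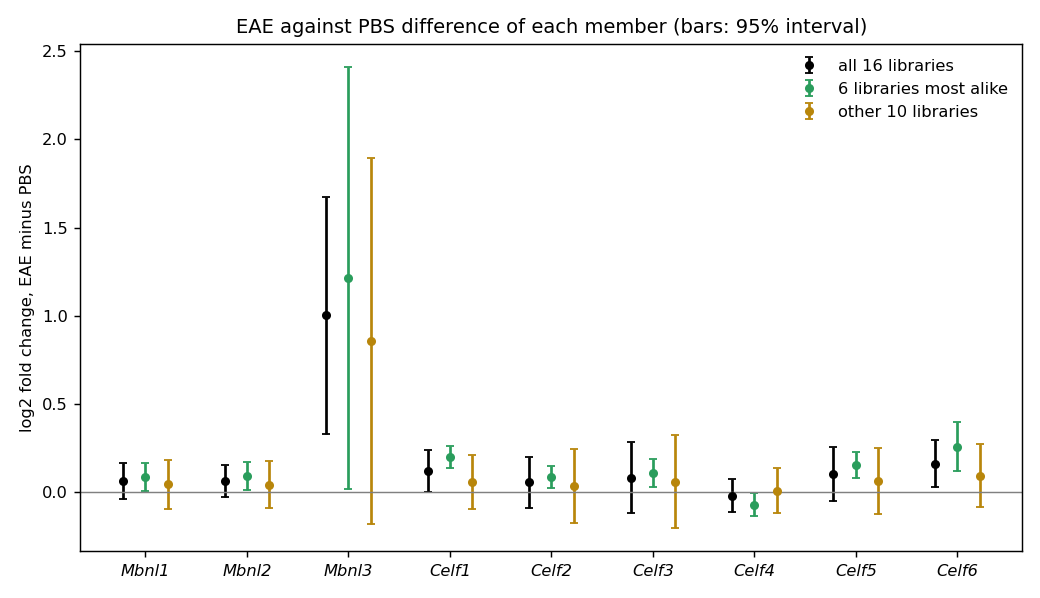
Log2 fold change of each member, EAE minus PBS, with 95% intervals from edgeR's quasi-likelihood fits to all 16 libraries (black), to the 6 libraries most alike (green) and to the other 10 (yellow). The green intervals are narrow by the choice of libraries. Mbnl3 lies near 1 with wide intervals, and the other 8 members lie between −0.07 and 0.26 in all 3 fits.

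Of the 8 members other than Mbnl3, 5 varied less between mice of the same group than the median mRNA did. The biological coefficient of variation in the edgeR fit was 6.73% for Mbnl2, 6.85% for Celf4 and 7.31% for Mbnl1, against a median of 9.13% over mRNAs with an average log2 CPM above 4. It was 8.5% for Celf1, 9.05% for Celf6, 10.1% for Celf2 and 10.5% for Celf5. Celf3 was the most variable of these 8, with 13.6%.

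Across libraries, Mbnl1 moved with Mbnl2, and 7 of the 15 pairs of Celf genes moved together, none of them with Celf2. These relations were computed on log2 CPM with the mean of each group removed, so that they do not use the difference between EAE and PBS mice, and were tested by 100000 two-sided permutations within groups. The pairs of members were examined after the data were seen. Of 36 pairs, 8 had an adjusted permutation p under 0.05, and all 8 were positive. Celf1 and Celf5 had r = 0.93 (permutation p = 0.0001, adjusted p = 0.00324; rho = 0.76, p = 0.00257, adjusted p = 0.0248). Without the 2 libraries farthest from the median of Celf5, r was 0.80. Within the other 10 libraries r was 0.94, but within the 6 libraries most alike it was −0.69.

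Celf3 and Celf5 had r = 0.87 (permutation p = 0.00018, adjusted p = 0.00324; rho = 0.88, p = 4e-05, adjusted p = 0.00144), with 0.88 without the 2 farthest libraries, 0.78 within the 6 and 0.83 within the 10. This pair kept its sign in every set of libraries. Mbnl1 and Mbnl2 had r = 0.76 (permutation p = 0.00294, adjusted p = 0.0223; rho = 0.77, p = 0.00276, adjusted p = 0.0248), with 0.62 without the 2 farthest libraries, 0.41 within the 6 and 0.73 within the 10. The other 5 pairs were Celf1 with Celf3, Celf1 with Celf6, Celf3 with Celf6, Celf4 with Celf5 and Celf5 with Celf6. Their r, in this order, was 0.81, 0.77, 0.71, 0.69 and 0.80. Without the 2 farthest libraries it was 0.74, 0.44, 0.47, 0.51 and 0.53. Within the 6 libraries most alike, r turned to −0.50 for Celf1 with Celf3 and −0.58 for Celf1 with Celf6, and the latter pair had an adjusted permutation p of 0.161 for rho. The 7 pairs left out Celf2, whose r with the other Celf genes ran from −0.06 to 0.60. Of the 18 pairs that join a Mbnl gene with a Celf gene, 0 had an adjusted permutation p under 0.05 for r and 3 did for rho. These were Mbnl1 with Celf3 (rho = −0.64, adjusted p = 0.04), Mbnl1 with Celf5 (rho = −0.64, adjusted p = 0.0313) and Mbnl2 with Celf3. Mbnl1 and Mbnl2 each had a negative r with Celf1, Celf3, Celf4, Celf5 and Celf6. The lowest was Mbnl2 with Celf3, at r = −0.54 (permutation p = 0.0152, adjusted p = 0.0568; rho = −0.66, p = 0.00628, adjusted p = 0.0323), with −0.51 without the 2 farthest libraries, −0.79 within the 6 and −0.42 within the 10.

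The members' levels were set against cell type markers, since the libraries held RNA of several brain cell types. Against the mean log2 CPM of the neuron markers, 0 of 9 members had an adjusted permutation p under 0.05, with r from −0.01 to 0.40. Against the microglia markers, 1 of 9 did. Mbnl1 rose with the microglia markers, with r = 0.75 (permutation p = 0.00093, adjusted p = 0.0167; rho = 0.67, p = 0.00353, adjusted p = 0.0635). Its r was 0.55 without the 2 libraries farthest from the median, 0.88 within the other 10 libraries and −0.62 within the 6 most alike, so the relation was not held in every set. The adjusted p values cover 18 relations.

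The other 8 marker lists were examined after the data were seen, with p-values adjusted over their 72 relations, of which 19 passed for r. Fewer passed for rho, namely Mbnl1, Celf3 and Celf5 with the oligodendrocyte markers and Mbnl1 and Celf5 with the precursor markers. The remaining one was Celf3 with the astrocyte markers. Over all 16 libraries, the oligodendrocyte lists gave opposite signs for Mbnl1 and for Celf5. With the oligodendrocyte precursor markers Mbnl1 had r = 0.82 (permutation p = 7e-05, adjusted p = 0.0036; rho = 0.87, p = 0.00011, adjusted p = 0.00396), and r was 0.77 without the 2 farthest libraries, 0.47 within the 6 and 0.73 within the 10. With the oligodendrocyte markers Celf5 had r = −0.82 (permutation p = 0.0001, adjusted p = 0.0036; rho = −0.85, p = 6e-05, adjusted p = 0.00396), with −0.81 without the 2 farthest libraries, −0.30 within the 6 and −0.72 within the 10. Of 9 members, 5 passed for r against the oligodendrocyte markers, Mbnl1 with a positive sign and 4 Celf genes with a negative one. For Mbnl1 this r was 0.74 over all libraries, 0.60 within the 10 and −0.21 within the 6. Celf5 with the precursor markers had r = −0.67 over all libraries, −0.49 within the 10 and 0.39 within the 6. These 2 relations therefore changed sign within the 6 libraries most alike.

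Celf3 fell as the astrocyte markers rose, with r = −0.90 (permutation p = 0.00029, adjusted p = 0.00696; rho = −0.71, p = 0.00359, adjusted p = 0.0431), and r was −0.76 without the 2 farthest libraries, −0.08 within the 6 and −0.96 within the 10. In EAE 5, where Celf3 was lowest, the mean log2 CPM was 8.66 for the astrocyte markers and 5.95 for the erythroid markers, the highest of the 16 libraries for both lists. With the erythroid markers Celf3 had r = −0.84 (permutation p = 0.00132, adjusted p = 0.0158), but rho was −0.46 (p = 0.0802, adjusted p = 0.206) and r was −0.56 without the 2 farthest libraries, −0.77 within the 6 and −0.86 within the 10. Mbnl1 had negative relations with the neutrophil markers (r = −0.68, permutation p = 0.00905, adjusted p = 0.0383; rho = −0.51, p = 0.0528, adjusted p = 0.164) and the monocyte markers (r = −0.68, permutation p = 0.011, adjusted p = 0.0417; rho = −0.61, p = 0.0178, adjusted p = 0.112). Without the 2 farthest libraries r was −0.19 and −0.61, within the 6 it was −0.79 and −0.27, and within the 10 it was −0.65 and −0.77. Mbnl3 had r = −0.02 (permutation p = 0.935, adjusted p = 0.962; rho = −0.07, p = 0.808, adjusted p = 0.88) with the neutrophil markers, with 0.02 without the 2 farthest libraries, 0.63 within the 6 and −0.16 within the 10. Against the astrocyte markers, 5 of 9 members passed for r, all with a negative sign, and Celf3 alone passed for rho. Mbnl3 was among the 5. Its r with that list was −0.65 (permutation p = 0.0077, adjusted p = 0.0346), and rho was −0.62 (permutation p = 0.0134, adjusted p = 0.0964). That r was −0.62 without the 2 farthest libraries, −0.41 within the 6 and −0.70 within the 10. Endothelial and T cell markers gave 0 of 9 each. The part of cell makeup in the members' levels was not tested.

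**Figure D4:**
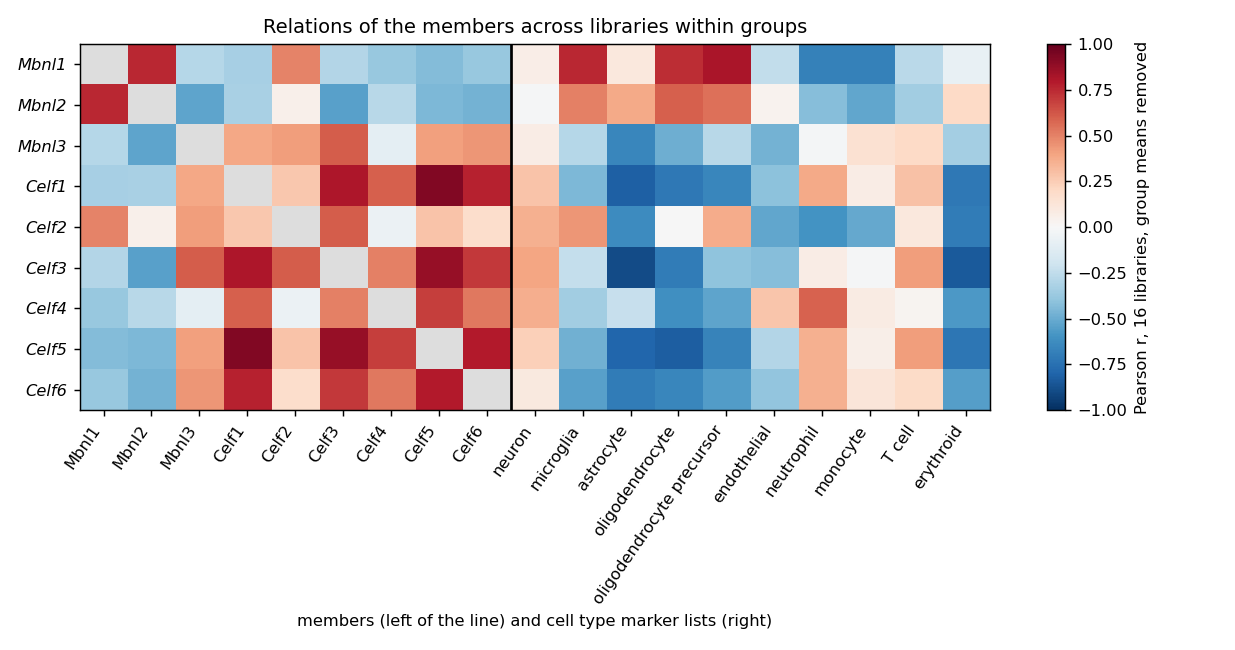
Pearson r over 16 libraries, with group means removed, between each member (rows) and the other members (left of the line) or the mean log2 CPM of 10 cell type marker lists (right of it), with the gray diagonal left blank. Mbnl1 with Mbnl2 and Celf1, Celf3, Celf5 and Celf6 with each other are red, Celf2 is paler against most Celf genes, and Celf1, Celf3 and Celf5 are blue against astrocyte and oligodendrocyte markers.

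For the 8 members with enough counts, the 3 mRNAs most alike in group-centred log2 CPM were taken from 13951 others, as a description with no test. For Mbnl1 they were Ppp1r9a (r = 0.94, rho = 0.89, r = 0.87 without the 2 farthest libraries), Mapk10 and Tom1l1. For Mbnl2 they were Snx27 (r = 0.88, rho = 0.85, r = 0.81), Mlip and Tppp, and 0 mRNAs had an r over 0.9 with it. Ppp1r9a encodes a neuronal actin-binding protein and Mapk10 a brain kinase of the JNK group. For Celf1 they were Mkl2 (r = 0.94, rho = 0.85, r = 0.87), Map3k9 and Srrm2, and for Celf2 Srrm1 (r = 0.98, rho = 0.91, r = 0.92), Etl4 and Snx29. Srrm1 and Srrm2 encode serine- and arginine-rich splicing proteins. For Celf3 they were Tnfrsf18 (r = 0.98, rho = 0.92, r = 0.97), Srrm3 and Trerf1, and Srrm3 encodes a neuronal splicing factor. For Celf4 they were Lsr (r = 0.97, rho = 0.96, r = 0.96) and Ythdf2. For Celf5 they were 4930432K21Rik (r = 0.98, rho = 0.97, r = 0.94), Arhgef1 and Cacna1d, and for Celf6 Las1l (r = 0.95, rho = 0.91, r = 0.88), Morn1 and Gmeb1.

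Other regulators of splicing were set beside the members. Of 26 other tissue-restricted regulators such as the Rbfox, Nova and Ptbp genes, 13 SR proteins and 18 hnRNP proteins, 57 genes in all, edgeR called 0 higher and 0 lower, against 0.66% and 1.76% of all mRNAs. Their median log2FC was 0.03, against 0.08 for the members and 0.01 for all mRNAs. At an unadjusted p under 0.05 the edgeR fit held 9 of the 57, against 17.4% of all mRNAs, and the DESeq2 Wald test and the edgeR exact test called 0 of them. The smallest adjusted p in the edgeR fit, 0.106, was that of Srsf11.

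Of 26 transcripts known to be spliced by Mbnl or Celf proteins, edgeR called 2 lower and 0 higher in EAE mice, against 1.76% and 0.66% of all mRNAs. Atp2a2, a calcium pump of the endoplasmic reticulum whose transcript is a long-known target of these proteins, lay between 174 and 226 FPKM in EAE mice and between 207 and 244 in PBS mice. The groups overlapped, and its log2FC was −0.27 (SE 0.05, adjusted p = 0.0082 in the edgeR fit). Ndrg4, which is expressed in neurons and heart, lay between 216 and 273 FPKM in EAE mice and between 259 and 299 in PBS mice. Its log2FC was −0.22 (SE 0.05, adjusted p = 0.0232 in the edgeR fit). Neuron markers moved the same way, as 5 of 17 were called lower by edgeR and 0 higher, and their median log2FC was −0.12. The part of cell makeup in these values was not tested. The edgeR exact test called the same 2, and the DESeq2 Wald test called 4, adding Add1, which was lower, and Ppp1r12a, which was higher. Add1 and Ppp1r12a are named after their values were seen. The median log2FC of all 26 was 0.02. Dmpk, Cnbp and the kinases of the myotonic dystrophy pathway, 4 genes in all, had 0 calls by edgeR, DESeq2 or the exact test and 0 at an unadjusted p under 0.05.

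**Figure D5:**
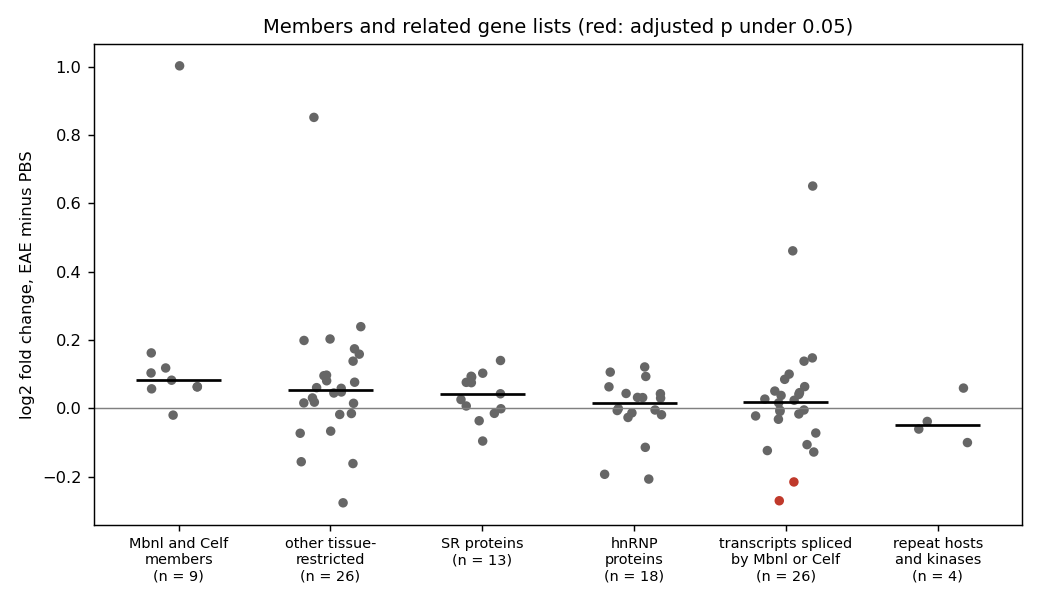
Log2 fold change, EAE minus PBS, of the 9 members and of 5 related gene lists, with 1 point per gene, a black line at each list's median and red points for an adjusted p under 0.05 in the edgeR fit. The red points are Atp2a2 and Ndrg4, and Mbnl3 is the single member far from the line at 0.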

How the data were processed

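RNA-seq was performed by the authors on stranded total RNA libraries of sorted microglia, with ribosomal RNA removed and paired reads of 150 bases. The submitters' processing notes name HISAT2 2.1.0, HTSeq 0.11.2, DESeq2 1.22.2 and the build GRCm38. The authors deposited raw counts per mRNA and FPKM values for 8 EAE and 8 PBS mice. The methods name RefSeq for the annotation of transcripts, with no release, and the strand setting of the counting is not given in the sources used here.

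The quasi-likelihood test of edgeR 4.0.16 (R 4.3.3) was applied to these counts after TMM scaling, with no covariates, for each mRNA whose counts summed to 16 or more. P-values were adjusted by the Benjamini-Hochberg method over all of these mRNAs, with a threshold of 0.05. Intervals are 95% intervals of the fitted log2FC. Levels are the deposited FPKM. DESeq2 1.42.0, the edgeR exact test and other settings were tried as alternatives. Relations across libraries used log2 CPM with a prior count of 2. The fits and the permutation test were tested on simulated data. Replicates are separate mice by the methods, with 1 library each.

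The members and the gene lists were chosen with earlier results of these data known, as were the 6 libraries most alike. All members were named, as were all called genes of the other lists (at most 6 per direction and list) and, for members with a mean of at least 50 counts in both groups, the 3 mRNAs most alike, of which 1 is not reported here. Gene positions, overlaps and the printed sequences came from GENCODE M21 on GRCm38. EAE and PBS libraries share replicate numbers, and deviations of same-numbered libraries had r from −0.121 to 0.382, against a median of 0.0162 for differently numbered ones, so they were not treated as pairs. Of 8 EAE libraries, 3 were most like the PBS library of the same number.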

Additional observations from a re-analysis of the deposited data

Results flagged for a closer look

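In both groups, 1 library stood apart from the other 7 for Celf2. In EAE mice, EAE 5 had 26.8 FPKM, the next library had 32.9 and the highest had 38.1, so that the gap to the nearest library was 0.539 of the whole range, above Dixon's 95% critical value for 8 samples. In PBS mice, PBS 4 had 40.3 FPKM, the next library had 32.4 and the lowest had 27.7, with a gap of 0.621 of the range. In all, 18 groups of 8 values were examined, and chance alone would be flagged in about 1 of 20.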

How the results depend on the processing

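The count of members called lower in EAE mice was 0 in every setting tried. The count called higher was 0 in the edgeR fit to all libraries, 1 with the edgeR exact test (Mbnl3), 5 within the 6 libraries most alike, and 0 to 2 when 1 library was left out (2 without EAE 4). For the other splicing regulators, 0 were called either way in the edgeR fit to all libraries. With library totals alone, 2 were called higher (Srsf11 and Hnrnpr). Within the 6 libraries most alike, 7 of the 57 were called lower and 8 higher, where 24.1% of all mRNAs were called in either direction. Of the 17239 mRNAs in that fit, 2251 were called lower and 1896 higher. Leaving out 1 library gave 0 to 1 lower (Qk without EAE 5, Hnrnpa0 without PBS 4). It gave 0 to 2 higher (Ptbp1 and Srsf11 without EAE 4, Rbfox1 without EAE 5). The cause was not tested. Over all mRNAs the edgeR fit called 433, against 910 with DESeq2, 745 with the exact test, 4147 within the 6 libraries, 13 within the other 10, 1317 without EAE 4 and 144 without PBS 2. With the replicate number as a block, 517 mRNAs and 0 members were called, and the block moved the adjusted p of Mbnl3 to 0.184 and that of Celf6 to 0.139. The count of members related to the microglia markers was 1 in all libraries, 0 without the 2 libraries farthest from the median and 0 within the other 10 libraries. That to the neuron markers was 0 in each. Within the 6 libraries these tests were not run, since 3 libraries a group allow 36 orders only.

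Each member's log2FC moved by less than its SD between libraries of a group in all 252 combinations of member and setting. That SD was wider than the SE of the log2FC for each member, so this measure is a loose one. For Celf1, with an SD of 0.12 and an SE of 0.06, the log2FC went from 0.12 to 0.20 within the 6 libraries. Its adjusted p in the edgeR fits went from 0.291 to 2.62e-05. The sign of Celf4 changed in 2 of 12 settings and in 1 of 16 fits that left out 1 library, and no other member changed sign. Depth limits Mbnl3 most, with at most 21 counts in any library, while the other members had at least 737.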
